A study of Homo sapiens with 18 samples.

Results

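A window of 4 Mb on chromosome 15, centred near the start of B2M, was examined for DNA methylation by distance from that gene. All regions of the deposited MeDIP-seq count table that overlapped 43 to 47 Mb of chromosome 15 (build hg19, the sequence of GRCh37) were taken, which gave 462 of the 198884 regions in the table. The rule used positions alone and no measured signal. MeDIP-seq sequences DNA fragments that an antibody against 5-methylcytosine has pulled down, so a region's count rises with the methylated cytosines in its fragments and gives no methylation level per site.

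The cells were K562, an established human erythroleukaemia line, and every group carried a B2M:tdTomato transgene, tdTomato being a red fluorescent protein. Per the labels, 3 libraries came from untreated cells, 3 from cells silenced with TALE proteins and 3 from cells silenced with dCas9, in each of MeDIP-seq and RNA-seq, and both tools were aimed at DNA methylation of the B2M promoter. Treated cells received 3 plasmids for different effectors, of which the labels name 1 as D3A-based, and the dCas9 cells also received a guide RNA plasmid. The labels do not give an age of the cultures or a time between treatment and collection, they do not say whether replicates were separate cultures, and p-values may therefore measure technical spread only. Below, "silenced" means both treated groups, weighted equally. Both were set against the same untreated libraries, so their differences from untreated are not independent of each other. These are bulk samples: more cells with methylation at a site and more methylation per cell cannot be told apart.

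MeDIP libraries held 2529729 to 4492751 counts over all listed regions, and RNA libraries 8460076 to 12050554 counts. All 9 K562 markers listed (such as GATA1 and the embryonic and fetal globins) were above 10 CPM (counts scaled to library size, per 1e6) in every RNA library, with summed levels of 7648 to 8259 CPM in untreated, 6024 to 9757 in TALE and 6135 to 9398 in dCas9 cells. Of 9 markers of other blood cells and epithelium, 4 (CD3E, MS4A1, CD14 and NKG7) were under 1 CPM in every library and 4 (CD3D, LYZ, EPCAM and KRT18) were above 10 CPM. Their summed level was 352 to 384 CPM in untreated, 360 to 418 in TALE and 374 to 414 in dCas9 cells, and its part in the results was not tested.

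Beta-2 microglobulin, the product of B2M, is the light chain without which MHC class I molecules are not displayed at the cell surface. Its promoter is rich in CpG, the dinucleotide at which mammalian DNA is methylated, and such promoters are usually free of methylation in cells that use the gene. CpG sites in gene bodies and between genes are methylated in most cells. Methylation of a promoter's CpG sites is a mark associated with stable silencing, and DNMT3A, DNMT3B and DNMT1 are the enzymes that place and copy it.

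Only 1 of the 462 regions lay within 10 kb of the B2M start, and its sequence is shown because the difference in MeDIP counts described below lies on it. The 300 bases that end just before the start at 45003715 (chr15:45003415-45003714, plus strand, GRCh37) hold nearly all of the start region. CpG sites are in capitals.
B2M upstream: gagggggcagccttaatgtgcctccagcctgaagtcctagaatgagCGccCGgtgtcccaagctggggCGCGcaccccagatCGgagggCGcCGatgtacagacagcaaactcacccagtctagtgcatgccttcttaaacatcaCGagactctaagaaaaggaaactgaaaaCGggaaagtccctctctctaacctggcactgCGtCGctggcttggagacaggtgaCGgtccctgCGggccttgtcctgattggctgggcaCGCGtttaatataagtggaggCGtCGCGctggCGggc
The stretch before the B2M start held 19 CpG sites and was 58.7% G or C, while the nearest regions upstream (chr15:44982059-44982374) and downstream (chr15:45015011-45015266) held 7 CpG sites each. Over the 20152 protein-coding genes for which the same 300 bases were read from GRCh37, the median was 20 CpG sites (quartiles 8 and 30), and 45.3% had fewer than B2M. Both strands were searched for 5 motifs. CCAAT was found once, on the minus strand at position -49 counted from the start, and 37.8% of the protein-coding windows held it. GAAANTGAA, the core of the element bound by interferon-regulated factors, was found once, on the plus strand at position -138, and 1.64% of windows held it. GGGCGG (held by 60.4% of windows), TATAAA (11.2%) and CACGTG (8.87%) were not found in these letters.

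The region at the B2M start (chr15:45003405-45003721) had the largest fold change and the smallest p between silenced and untreated cells among the tested regions of the window. It spans 317 bp with 20 CpG sites: 310 bp lie upstream of the B2M start and 7 bp in exon 1, before the coding sequence, which begins at 45003745. It also holds the start of PATL2, at 45003521 on the minus strand, 194 bp before that of B2M. PATL2 codes for a protein known from oocyte maturation. In the untreated libraries the region had 0, 0 and 0 counts. TALE libraries had 7, 10 and 9 counts, and dCas9 libraries had 14, 13 and 16. All 6 silenced libraries had counts and no untreated library did, so the groups did not overlap. Such a lack of overlap was not particular to this region. With it included, silenced and untreated CPM values did not overlap in 11 of the 337 tested regions of the window (3.26%). Of these, 6 were higher and 5 lower in silenced cells, and the share over the whole table is not given here.

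On the CPM scale, taken over the tested regions after TMM scaling, the region at the B2M start stood at 3.23, 3.93 and 2.47 in TALE replicates 1, 2 and 3, a mean of 3.21 ± 0.727 (SD, n = 3). In dCas9 replicates 1, 2 and 3 it stood at 5.53, 3.38 and 6.91 CPM, a mean of 5.27 ± 1.78 (SD, n = 3). A count of 0 in the pooled untreated libraries allows up to 0.340 CPM, taking 3 counts as the limit. The two-sided 95% limit, the kind used below for the silenced counts, would be 3.69 counts and would lower all folds that follow. Against the limit of 3 counts TALE cells had at least 9.44-fold higher and dCas9 cells at least 15.5-fold higher signal, bounds that take the silenced means as they stand. At the lower 95% limit for counting error of the 26 TALE and 43 dCas9 counts they were 6.17-fold and 11.2-fold. The region is in the table through peaks of 2 silenced libraries, and it passed the count filter through silenced libraries alone, so the groups in which it is high decided that it was tested. The filter asked for 10 counts, scaled to the library of median depth, in at least 3 libraries. TALE replicate 2, itself that library, had exactly 10, and only dCas9 replicates 1 and 3 stood above the limit. With 1 count fewer in TALE replicate 2 the region would not have been tested. By edgeR's quasi-likelihood test with Benjamini-Hochberg adjustment over all 105652 regions tested, the rise in dCas9 over untreated cells was called (adjusted p 0.0438, unadjusted 4.15e-07). It was not called for TALE against untreated (adjusted p 0.522, unadjusted 1.48e-05) or for silenced against untreated (0.0815, unadjusted 7.72e-07). The fitted log2 fold changes of 6.21 (SE 1.35), 6.90 (SE 1.26) and 6.56 (SE 1.23) depend on edgeR's prior count, because untreated counts are 0. Each SE was worked back from the fold change and the test's F value. It therefore depends on the prior count too and does not measure the precision of the fold change here. Exact two-sided permutation tests of CPM gave p = 0.1 for TALE and for dCas9 against untreated and p = 0.0119 for the 6 silenced libraries, in each case the smallest the design allows.

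The dCas9 call rested on few counts and on single libraries. Its edgeR adjusted p was 0.273, 0.0508 and 0.257 without untreated replicate 1, 2 or 3. It was 0.0538 and 0.0548 without TALE replicate 2 or 3, and 0.463 and 0.453 without dCas9 replicate 1 or 3. DESeq2 (adjusted p 0.103) and a fit with the replicate number as a block (edgeR adjusted p 0.0850) ended the call too. The silenced contrast, in turn, was called without TALE replicate 3 (adjusted p 0.0485).

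TALE and dCas9 signal at the B2M start could not be told apart at this depth. The 26 pooled TALE counts gave a level 0.630 times that of the 43 dCas9 counts, with a 95% exact interval for counting error of 0.371 to 1.05. The edgeR log2 difference was −0.70 (SE 0.625, adjusted p 1.00), and the exact permutation p was 0.2. These values do not show that the levels are equal.

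**Figure D1:**
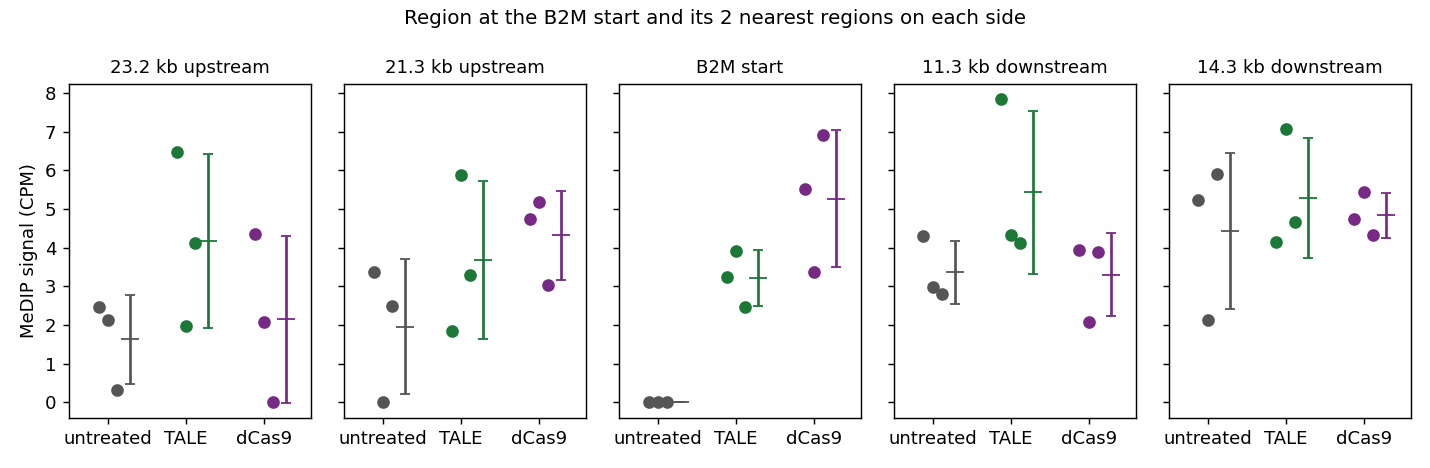
MeDIP signal in CPM (vertical axis) at the B2M start and at the 2 nearest regions on each side, with 1 point per library and the mean ± SD of 3 libraries beside them, for untreated, TALE and dCas9 cells. At the B2M start the 3 untreated libraries are at 0 and the 6 silenced libraries lie between 2.47 and 6.91 CPM, while at the other 4 regions the silenced and untreated values overlap.

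The pattern of counts at the B2M start was rare in the table. Of all 198884 regions, 39 had no counts in any untreated library and at least 1 in each of the 6 silenced libraries, and 1 of them was in the window. The opposite pattern, counts in all untreated and in no silenced library, occurred in 11 regions of the table and 0 of the window. It needs 0 counts in 6 libraries where the first pattern needs 0 in 3, so 39 and 11 are not comparable. The summed silenced count of 69 at the B2M start was the highest among the 39, and the next was 37. This comparison was chosen after the values were seen.

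Levels at the B2M start in silenced cells stayed within the range of other regions of the window, in TALE cells in its lower part. For the 80 other regions with 15 to 25 CpG sites, the median of mean CPM was 10.0 in untreated, 10.2 in TALE and 9.31 in dCas9 cells. Of these 80 regions, 6 had less signal than the B2M start in TALE cells and 18 in dCas9 cells. In untreated cells the B2M start stood at 0, below which no region can lie, and the lowest of the 80 had a mean of 2.15 CPM. Among all 462 regions the B2M start ranked 321st by mean CPM in TALE cells and 185th in dCas9 cells. Those ranks include regions with too few counts to be tested. Of the tested regions of the window, 8.01% had a lower mean CPM in TALE cells and 45.1% in dCas9 cells.

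**Figure D2:**
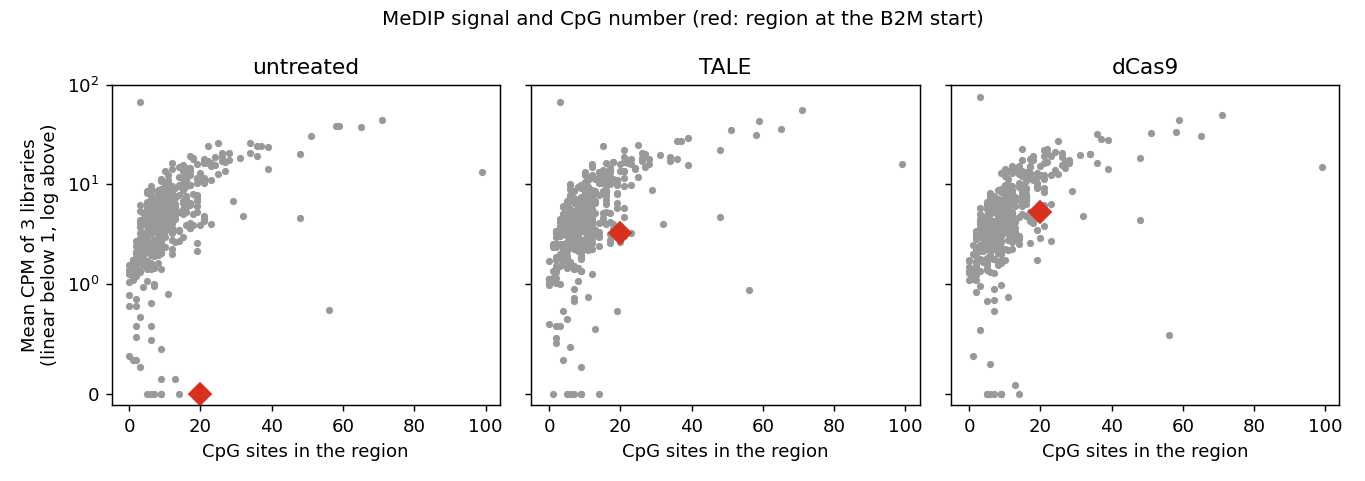
Mean CPM of 3 libraries (vertical axis, linear below 1 and logarithmic above) against the number of CpG sites in each of the 462 regions, in untreated, TALE and dCas9 cells. The red diamond, the region at the B2M start with 20 CpG sites, lies at 0 in untreated cells and among the other regions in TALE (3.21 CPM) and dCas9 (5.27 CPM) cells.

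Peak lists gave a thinner record of the same region. Peaks were called by the authors in each library separately, and a peak over the B2M start was listed in TALE replicate 2 (chr15:45003405-45003721, the edges of the region itself) and dCas9 replicate 3 (chr15:45003317-45003751). Their fold enrichments, as deposited, were 2.71 and 2.37, where the median of all peaks of the window was 2.57 and 2.63 in those 2 lists. The deposited −log10 of q, the adjusted p of the peak caller MACS2, was low, at 2.07 in TALE replicate 2 and 1.24 in dCas9 replicate 3. The other 4 silenced libraries had counts there and no listed peak. A peak in at least 1 TALE and 1 dCas9 library and in no untreated library was found at 30 of the 462 regions (6.49%, against 5.49% of the table). Of those 30 regions, 1, the B2M start, had no untreated counts, and the others had at least 2 counts in the untreated libraries together, with a median of 23.

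No other region touched the B2M gene, which runs from 45003556 to 45011049. The nearest upstream region, chr15:44982059-44982374 in an intron of PATL2, ended 21030 bp before the region at the B2M start. Its counts were 11, 0 and 8 in untreated, 4, 15 and 12 in TALE and 12, 20 and 7 in dCas9 libraries. The groups overlapped, and the log2 fold change was 0.82 (SE 0.612, unadjusted edgeR p 0.186) for TALE and 1.06 (SE 0.597, unadjusted edgeR p 0.0795) for dCas9.

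The next one upstream, chr15:44980176-44980474, also in a PATL2 intron, had 8, 5 and 1 counts in untreated, 14, 5 and 15 in TALE and 11, 8 and 0 in dCas9 libraries. Its log2 fold changes were 1.34 (SE 0.741, unadjusted edgeR p 0.0734) and 0.43 (SE 0.790, unadjusted edgeR p 0.589). The groups overlapped there too, and neither region passed the test.

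Downstream, the nearest region (chr15:45015011-45015266, outside protein-coding genes) began 11289 bp after the end of the start region. It had 14, 7 and 9 counts in untreated, 17, 11 and 15 in TALE and 10, 8 and 9 in dCas9 libraries. Its log2 fold changes were 0.64 (SE 0.484) for TALE and −0.08 (SE 0.511) for dCas9, with overlapping groups. A stretch of 32636 bp around the B2M start thus held no listed region other than the start region, and methylation between these points was not measured here, since the table holds only regions that overlap a peak of some library.

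Within 100 kb of the B2M start lay 32 further regions, 19 of them upstream, in introns and exons of SPG11 (the spatacsin gene of hereditary spastic paraplegia), PATL2 and TRIM69 (a ubiquitin ligase gene) or between genes. Their summed signal was 185.9, 184.6 and 175.0 CPM in the untreated, 191.7, 176.2 and 169.2 CPM in the TALE, and 192.0, 168.5 and 150.2 CPM in the dCas9 replicates. The groups overlapped, with means of 181.8 ± 5.94 (SD, n = 3), 179.0 ± 11.5 and 170.3 ± 20.9 CPM. Of these 32 regions 25 were tested. Their median log2 fold change was 0.03 for TALE against untreated (range −1.12 to 1.34, 13 of 25 higher) and −0.15 for dCas9 (range −0.87 to 1.06, 10 of 25 higher). None was called by edgeR in either contrast. 1 had an unadjusted p under 0.05 for TALE (chr15:44912918-44913155 in SPG11, lower, p 0.0292 by edgeR) and 0 for dCas9, and DESeq2 also called none. For TALE against dCas9, 2 of the 25 had an unadjusted p under 0.05 by edgeR and neither was called, both higher in TALE cells and in SPG11 introns (chr15:44927580-44928174, p 0.0171, and chr15:44917066-44917290, p 0.0208).

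The regions that framed B2M at greater distance gave overlapping levels in the silenced and untreated groups. Here the unit is CPM of all listed counts, summed over the regions of a distance class and given as mean ± SD of 3 libraries. At 10 to 100 kb it was 155.5 ± 5.14 in untreated, 153.4 ± 9.87 in TALE and 145.6 ± 18.3 in dCas9 cells. At 100 to 500 kb, with 160 regions, it was 900.3 ± 39.1, 888.3 ± 14.0 and 892.4 ± 4.68.

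The 77 regions at 500 kb to 1 Mb gave 520.0 ± 8.77, 521.8 ± 1.03 and 533.2 (range 507.5 to 557.5) in the same order and unit. The 192 regions beyond 1 Mb, all of them upstream, gave 991.8 ± 17.4, 987.0 ± 26.6 and 995.6 ± 1.82. Silenced and untreated libraries overlapped in every class beyond 10 kb. In the class under 2 kb, which holds only the start region, the values were 0, 2.75 ± 0.632 and 4.50 ± 1.51, and between 2 and 10 kb there was no region. In all, the window took 0.257% ± 0.00532 of listed counts in untreated, 0.255% ± 0.00113 in TALE and 0.257% ± 0.00312 in dCas9 libraries (SD, n = 3).

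**Figure D3:**
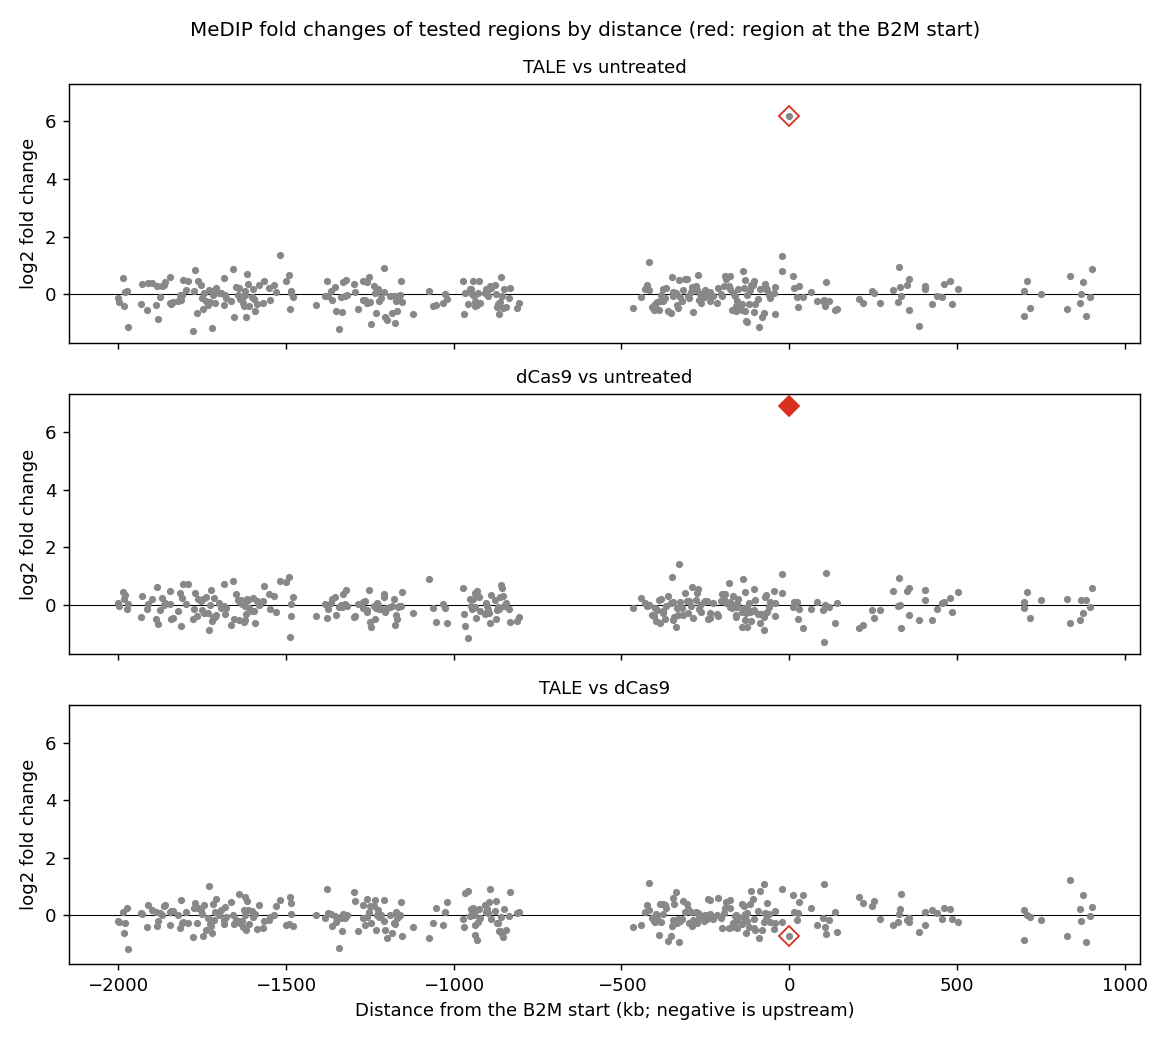
Log2 fold change of the 337 tested regions (vertical axis) against distance from the B2M start in kb (horizontal axis, negative upstream), for TALE against untreated, dCas9 against untreated and TALE against dCas9. The red diamond is the region at the B2M start, filled where it was called (dCas9, 6.90) and open where it was not (TALE, 6.21), and the other points lie between −1.28 and 1.42 in the contrasts with untreated.

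Of the 462 regions, 337 (72.9%) passed the count filter and were tested, against 53.1% of the whole table. For dCas9 against untreated, 1 of the 337 was called at an adjusted p under 0.05, where 0.000947% of all tested regions were. It was the region at the B2M start, the only call of that contrast in the table. The share over the table thus consists of this region alone and is no separate background for it. As given above, the region was tested through silenced libraries alone, and its call was lost with most single libraries left out. For TALE against untreated 0 of 337 were called (0% of the table), for silenced against untreated 0 (0%) and for TALE against dCas9 0 (0.000947%), and DESeq2 called 0 in each of the 4 contrasts.

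At an unadjusted edgeR p under 0.05 there were 20 regions for TALE (5.93%, against 4.74% of the table), 5 of them higher (1.48%, against 2.39%) and 15 lower (4.45%, against 2.35%). For dCas9 there were 16 (4.75%, against 4.69%), 12 of them higher (3.56%, against 2.35%) and 4 lower (1.19%, against 2.34%). For TALE against dCas9 there were 12 (3.56%, against 4.47%), and for silenced against untreated 16 (4.75%, against 4.88%). The total shares were near those of the whole table, while within them TALE had more lower and dCas9 more higher regions, a difference from the table that was not tested.

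CPM values of the 2 groups did not overlap in 38 regions for TALE against untreated (11.3%, against 10.2% of the table). They did not overlap in 40 for dCas9 (11.9%, against 10.3%) and in 32 for TALE against dCas9 (9.50%, against 9.97%). The median log2 fold change over the 337 regions was −0.04 for TALE and −0.04 for dCas9, beside 0.00 over the table.

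Apart from the B2M start, the regions with the smallest p-values did not pass adjustment, with the smallest adjusted p at 1.00. One in an intron of TP53BP1, a DNA damage response gene (chr15:43749793-43750581, 1253 kb upstream), had 46, 29 and 65 counts in untreated, 51, 70 and 80 in TALE and 65, 67 and 59 in dCas9 libraries. On the CPM scale that was 15.6 ± 4.16, 24.3 ± 2.83 and 22.9 ± 4.72 (SD, n = 3), and the unadjusted edgeR p was 0.00581 for TALE and 0.0230 for dCas9. The highest untreated value, 20.2 CPM, was above the lowest dCas9 value, 17.4.

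A WDR76 intron (chr15:44144517-44145024; WDR76 codes for a WD-repeat protein) had 31, 30 and 22 counts in untreated, 38, 35 and 48 in TALE and 35, 65 and 35 in dCas9 libraries, with a log2 fold change of 0.69 (SE 0.270, unadjusted edgeR p 0.0124) for dCas9. In the opposite direction, a region in a DUOX2 intron (chr15:45391250-45391522; DUOX2 codes for a dual oxidase) had 22, 11 and 26 counts in untreated, 8, 10 and 7 in TALE and 12, 23 and 6 in dCas9 libraries, at −1.09 (SE 0.444, unadjusted edgeR p 0.0156) for TALE. A region 207 kb downstream (chr15:45210916-45211391) had 11.4, 10.6 and 10.9 CPM in untreated and 5.93, 6.49 and 6.48 CPM in dCas9 libraries, with no overlap and an unadjusted edgeR p of 0.0133. TALE libraries stood at 11.1, 10.2 and 8.51 CPM there. None of these regions was called in any contrast.

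Listed regions were spread unevenly along the window. Their density was 115.5 per Mb, against 88.8 per Mb over the rest of chromosome 15, which held 6900 regions. Upstream of the B2M start lay 357 of them and downstream 104. The fullest 100 kb stretch (chr15:44800001-44900000, with SPG11 and EIF3J) held 35 regions, and 12 of the 40 stretches held none. The last region of the window ended at 45928324, 925 kb downstream, and the 1072 kb from there to 47 Mb held none. Other gaps over 100 kb were 215 kb and 109 kb long in FRMD5 and 129 kb long over SLC28A2, GATM and SPATA5L1.

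**Figure D4:**
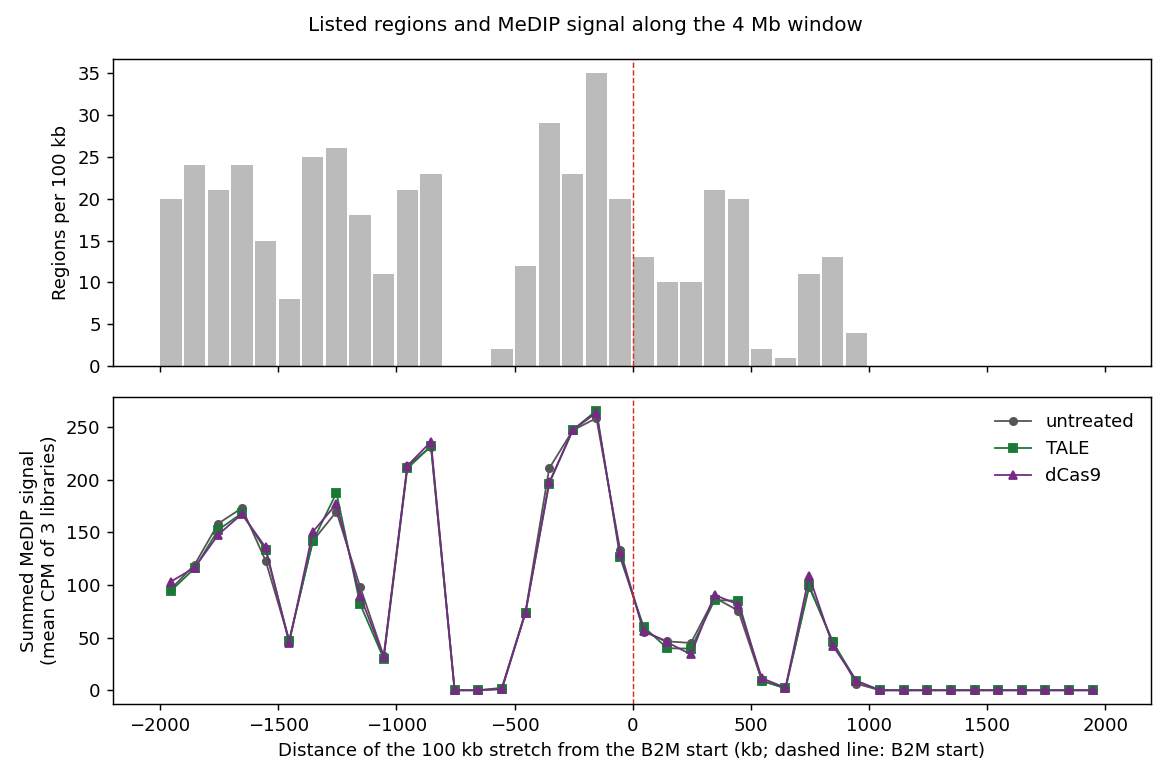
Number of listed regions per 100 kb (upper panel, bars) and their summed MeDIP signal (lower panel, mean CPM of 3 libraries per group) along the window, by distance of the stretch from the B2M start in kb. The lines of the 3 groups lie close together over the whole window, including the stretch that holds the B2M start, where they stand at 55.6 CPM in untreated, 60.2 in TALE and 56.6 in dCas9 cells.

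The regions of the window were short and mostly inside genes. Their median length was 287 bp, from 1 to 4296 bp, with a median of 2.92 CpG sites per 100 bp, against 2.78 in the rest of chromosome 15 and 6.31 at the B2M start. Introns of protein-coding genes held 329 regions (71.2%, against 59.5% in the rest of chromosome 15), exons 42, and 75 (16.2%, against 30.8%) lay outside such genes. Across the 462 regions mean CPM was higher with the number of CpG sites (Spearman's rho 0.663) and with length (0.568). These rho values are descriptions over regions that share the same libraries, and CpG number and length are themselves linked.

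A region lay within 1 kb of 19 of the 51 protein-coding gene starts in the window, 37.3%, against 20.1% of 556 starts in the rest of chromosome 15. Only 4 of the 51 starts lay inside a region, those of PATL2, B2M, DUOX2 and DUOXA2. In all, 16 regions lay within 1 kb of a start, most of them beside it. Of these 16 regions the one at the B2M start was alone in having no untreated counts. The highest, near SERF2 (chr15:44081953-44083604, 58 CpG sites; SERF2 codes for a small protein known to modify amyloid aggregation), had 39.3, 39.0 and 37.1 CPM in untreated, 30.5, 31.4 and 32.7 in TALE and 33.6, 35.1 and 31.9 in dCas9 libraries. The untreated values lay above all silenced ones, by a log2 fold change of −0.28 (SE 0.163, unadjusted edgeR p 0.0878) for TALE and −0.19 (SE 0.162, unadjusted edgeR p 0.236) for dCas9, and the region was not called.

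Near the start of SPG11 (chr15:44956850-44957168), the closest other gene-start region at 47 kb, counts were 42, 16 and 14 in untreated, 27, 15 and 26 in TALE and 32, 42 and 25 in dCas9 libraries. The region between DUOX2 and DUOXA2 (chr15:45406355-45406629), which code for a dual oxidase and its maturation factor and run in opposite directions as PATL2 and B2M do, had 9, 8 and 15, then 10, 11 and 13, then 14, 16 and 14 counts. Near the start of PDIA3 (chr15:44037644-44037910, 19 CpG sites), which codes for a member of the MHC class I peptide-loading complex, counts were 15, 14 and 42 in untreated, 11, 30 and 28 in TALE and 10, 9 and 21 in dCas9 libraries. In these 3 regions every untreated library had counts, and the silenced and untreated values overlapped. Only the region between DUOX2 and DUOXA2 holds gene starts, as the region at the B2M start does. Those of SPG11 and PDIA3 lie beside the gene start, within 1 kb, and do not show methylation at the start itself. The DUOX2 and PDIA3 regions were named for their genes' roles and fall outside the naming rule.

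The 5 regions of highest signal were present in all groups and had a peak in all 9 lists. The first, chr15:45753630-45756131 outside protein-coding genes, averaged 69.8 CPM with only 3 CpG sites in 2502 bp. That is 0.120 CpG sites per 100 bp, against a median of 2.92 over the window. Whether its signal reflects methylation was not tested. This region stood at 66.9 ± 7.81 CPM in untreated, 67.6 ± 3.85 in TALE and 74.9 ± 5.09 in dCas9 cells (SD, n = 3). A WDR76 intron (chr15:44122499-44126794, 71 CpG sites) had 44.9 ± 3.06, 56.1 ± 5.42 and 49.8 ± 6.61 CPM in the same order, with an unadjusted edgeR p of 0.0262 for TALE and no call. The others, with 58 to 65 CpG sites, averaged between 34.5 and 42.2 CPM.

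In 6 regions no library had a count although peaks were listed over them, 1 with a peak in all 9 lists (chr15:43869045-43869249 in PPIP5K1). Of these 6 regions, 5 lay between positions 43861294 and 43968843, at PPIP5K1 and CATSPER2, in a part of the chromosome known to hold a near copy of itself. In the same stretch, a region of 56 CpG sites over a PPIP5K1 exon (chr15:43876110-43878688) had between 0 and 5 counts per library and a peak in all 9 lists. How reads that match several places were counted is not given in the sources used here, and values in this stretch are uncertain. The last region was singled out after its values were seen.

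Listed peaks over the window numbered 225 to 312 per library, more in the deeper libraries. All 9 lists had a peak at 135 of the 462 regions (29.2%, against 24.5% of the table), and 41 regions had a peak in 1 list. Peaks in untreated libraries alone were found at 15 regions (3.25%, against 6.55% of the table), in TALE libraries alone at 13 (2.81%, against 5.60%) and in dCas9 libraries alone at 22 (4.76%, against 6.48%). At the edges of the window, the last region outside it (chr15:42991734-42991867) averaged 3.44 CPM and the first inside (chr15:43003276-43003521) 3.93 CPM. On the other side the last inside (chr15:45928205-45928324) averaged 1.04 CPM and the next outside (chr15:47110003-47110301) 0.635 CPM.

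RNA of the genes in the window was read beside these regions. Of 145 genes that start in it, 76 had an entry in the RNA table and 33 were tested. For silenced against untreated 1 of the 33 was called by edgeR, where 0.0363% of all tested genes were, and 2 had an unadjusted p under 0.05 (6.06%, against 6.35%). The gene called was B2M itself, which fell from 6.45 ± 0.487 CPM (SD, n = 3) in untreated to 0.333 ± 0.118 CPM (SD, n = 6) in silenced cells, a log2 fold change of −4.25 (SE 0.286, edgeR adjusted p 1.38e-07). How counts were divided between B2M and a separate transgene entry is not given in the sources used here.

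PATL2, which starts in the same MeDIP region, had 1, 3 and 7 RNA counts in untreated, 0, 0 and 1 in TALE and 0, 1 and 1 in dCas9 libraries, too few to be tested. The pattern was not particular to PATL2: DUOX2, 403 kb downstream and also untested, had 1, 3 and 6 untreated counts and 0 in every silenced library. The untested pseudogene FDPSP4 went the other way, with 0 in every untreated library, 1, 1 and 0 in TALE and 1, 1 and 1 in dCas9 libraries. SPG11, the next gene upstream, differed by −0.09 (SE 0.0975, unadjusted edgeR p 0.360) on the log2 scale between silenced and untreated cells, and TRIM69, the next downstream, by 0.24 (SE 0.205, unadjusted edgeR p 0.254). PDIA3 stood at 237.6 ± 16.8 CPM in untreated and 270.2 ± 14.1 CPM in silenced cells, at 0.18 (SE 0.101, unadjusted edgeR p 0.0831). Whether the B2M:tdTomato transgene holds a copy of the B2M promoter is not given in the sources used here, and MeDIP counts from such a copy and from the native promoter cannot be told apart.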

How the data were processed

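MeDIP-seq was run on 9 K562 samples and RNA-seq on 9, with matching sample codes in the labels. Per the submitters' processing notes the build was hg19, BWA 0.7.5, Picard, MACS2 and bedtools were used for MeDIP and STAR 2.3.0 for RNA; their settings, the counter, the rule that set the regions and the use of strand are not given in the sources used here. Per the labels' protocols, MeDIP libraries were pooled before immunoprecipitation. The 2 deposited tables hold raw counts, whole numbers, per region and per gene. The authors' peak lists, 1 per MeDIP library, give a score, a fold enrichment (a ratio) and the −log10 of its p and q, per peak, as deposited; scores were not analysed.

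Counts were tested on the whole tables with edgeR 4.0.16 in R 4.3.3: glmQLFit and glmQLFTest, TMM factors, filterByExpr with a minimum of 10 counts, 1 model of 3 group means over 9 libraries, prior count 0.125 and Benjamini-Hochberg adjusted p under 0.05. An SE given with an edgeR log2 fold change is the size of that change divided by the square root of the test's F value. The script was tested on simulated data. Permutation tests were exact. Distances run from the B2M start to the nearest base of a region, genes came from GENCODE on GRCh37, and 25 of 69 sequence names of the table were found in that reference, with 0 regions past a sequence end. A peak covers a region from 1 bp of overlap. Alternatives were TMM against RLE factors, no filter, a replicate block, the compared groups alone, DESeq2 1.42.0, each library left out, a −log10 q of 5, other denominators, window widths and distances.

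Regions named were the one at the B2M start, those within 100 kb, those called, up to 3 higher and 3 lower per contrast by unadjusted p, the 5 of highest mean CPM, the 5 of highest mean CPM within 1 kb of a gene start, and those at the window's edges; the text gives those the results turn on and summarises the rest. Some items, the sequences of the regions beside the B2M start among them, are not reported here. The window, lists and tests were chosen with earlier results of these data known.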

Additional observations from a re-analysis of the deposited data

How the results depend on the processing

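Of 202 alternatives over 37 results, 169 kept direction and side of the threshold (counts within 1.5 times, values within 1 SD), 22 moved further, 9 lost a call, 2 gained one and 0 reversed. Some of the 169 had little room to differ. Exact permutation tests against untreated gave the smallest p the design allows in every setting. Distances to region midpoints, and regions wholly inside the window, gave the same values as the main setting. Regions called for dCas9 against untreated numbered 0 with the replicate block, with the compared groups only, with DESeq2 and without the region at the B2M start (the last chosen after seeing the data), and 0 to 1 with single libraries left out. Silenced against untreated called 1 without the count filter and 0 to 1 with libraries left out. At the B2M start the dCas9 log2 fold change was 6.91 with the replicate block (edgeR adjusted p 0.0850), 6.36 with DESeq2 (0.103) and 6.71 to 7.11 with libraries left out (0.0296 to 0.463). The silenced log2 fold change was 6.56 without the filter (edgeR adjusted p 0.0211) and 6.47 to 6.63 with libraries left out (0.0485 to 0.382). Same-numbered libraries did not all deviate together, so the numbers were not taken as pairs. Correlations were −0.00502 to 0.0038 for MeDIP and −0.256 to 0.101 for RNA, the RNA values being lowest between TALE and dCas9. Fits of the compared groups alone did not test the B2M start, which fell below the count filter there. Beyond fewer samples or regions, the cause of these shifts was not tested.

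With a −log10 q of at least 5, regions with a peak in all 9 lists numbered 0, in silenced lists alone 113 (6 lists, against 65 with all peaks) and in untreated lists alone 42 (3 lists, against 15). As a share of chromosome 15 counts the window took 7.56% in untreated, 7.59% in TALE and 7.67% in dCas9 libraries. Without its region of highest mean CPM it took 0.251%, 0.250% and 0.251% of all counts (chosen after seeing the data). At the B2M start, 0 untreated counts allow up to 0.340 CPM, taking 3 counts as the limit.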
